A study of Mus musculus with 2 samples.

Results

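The genes described here encode the proteins of the mitochondrial ribosome, and they were chosen by name: every protein-coding gene of the mm10 gene models whose symbol begins with Mrpl or Mrps and a number. The rule gave 78 of 21853 protein-coding genes, 49 named for the large subunit (Mrpl) and 29 named for the small subunit (Mrps). Subunit groups below follow the symbol alone. Mrps18a and Mrps30, whose products sit in the large subunit, and Mrps36 are therefore counted with the small subunit. The rule itself uses symbols and no measured value, and it was set with earlier results of these data known. The question is how accessible the promoters of these genes are in mouse blood monocytes, which DNA around them is open as well, and what the open sequence holds.

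The data are ATAC-seq peak lists, in which a transposase marks open chromatin, from monocytes taken from the peripheral blood of C57BL/6J mice. The 1 group holds 2 biological replicates of 50000 cells each, from adults aged 5 to 6 weeks, with no treatment and no control group named. Both replicates carry the same donor identifier in the labels, so the spread between them may be partly technical. Read counts are not part of the lists used, so sequencing depth is unknown here and values carry no counting interval.

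The mitochondrial ribosome translates the few proteins that mitochondrial DNA encodes, all of them subunits of the respiratory chain and ATP synthase. Its RNAs come from mitochondrial DNA, but every one of its proteins is encoded in the nucleus, made in the cytosol and imported. Some of these proteins have a counterpart in bacterial ribosomes and others were acquired by mitochondria, and nuclear factors such as NRF1, GABP (a member of the ETS family) and YY1 are known to act at promoters of mitochondrial genes. Of the members, 48 have a bacterial counterpart. One of the 30 others, Mrps36, carries the name of a ribosomal protein although its product is now known as a subunit of the alpha-ketoglutarate dehydrogenase complex.

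The sequences below show motif matches described later and, in the third set, stretches before the start of some members, in coordinates of mm10 (GRCm38.p6). The first set shows the 12 members in which the letters AANATGGCG, a core of the YY1 motif, lie within 150 bp of the promoter's summit and include the annotated start codon. Each line has the motif in capitals with 10 bases to either side, on the gene's strand.
Mrpl1, chr5:96210150-96210178, plus strand: cggaacagtcAACATGGCGgcggccgtaa
Mrpl27, chr11:94653789-94653817, plus strand: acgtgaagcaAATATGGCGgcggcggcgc
Mrpl35, chr6:71823743-71823771, minus strand: ggcaggctgcAAGATGGCGgcttccatct
Mrpl45, chr11:97315861-97315889, plus strand: ttgcgcgagcAAAATGGCGgcccccgtac
Mrpl46, chr7:78783013-78783041, minus strand: ggaagacagaAAGATGGCGgcgcccgtag
Mrpl58, chr11:115403762-115403790, plus strand: ctgggaggtgAACATGGCGaccgcctggg
Mrps10, chr17:47368894-47368922, plus strand: tcagggcaccAAGATGGCGgcgcgcgcag
Mrps14, chr1:160195254-160195282, plus strand: ctgggcagacAACATGGCGgcgtccgtgc
Mrps18a, chr17:46111005-46111033, plus strand: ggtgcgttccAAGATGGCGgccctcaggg
Mrps24, chr11:5707647-5707675, minus strand: gcgccggcccAAGATGGCGtggtccgcgt
Mrps27, chr13:99344790-99344818, plus strand: ggtgcgctccAAGATGGCGgctcccatgg
Mrps30, chr13:118387219-118387247, minus strand: gcggcgggcgAAAATGGCGgcggccaggt

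The second set shows 6 of the 33 members with the ETS core CCGGAAG and 4 of the 18 with the NRF1 core GCGCANGCG, again with the motif in capitals and 10 bases to either side. They were picked for their position within 60 bp of an annotated start, after the matches were known. Each is written on the strand on which the motif reads as given.
ETS core, Mrpl3, chr9:105053239-105053265, plus strand: gagaaacggaCCGGAAGtggcccggct
ETS core, Mrpl27, chr11:94653726-94653752, plus strand: tccgcaagacCCGGAAGtagatctatc
ETS core, Mrpl33, chr5:31613938-31613964, plus strand: cgcgcatgccCCGGAAGtagtcgttga
ETS core, Mrps10, chr17:47368864-47368890, plus strand: tgctgtgaccCCGGAAGcggtcctggg
ETS core, Mrps18a, chr17:46110968-46110994, plus strand: cacccctgctCCGGAAGcggaagtgca
ETS core, Mrps26, chr2:130563733-130563759, minus strand: tgcgcccggcCCGGAAGtggccgcgga
NRF1 core, Mrpl9, chr3:94443299-94443327, minus strand: gaaggaccccGCGCATGCGcagctgcgcc
NRF1 core, Mrpl44, chr1:79775973-79776001, plus strand: agaagcacttGCGCACGCGcagtacacta
NRF1 core, Mrpl57, chr14:57826172-57826200, plus strand: tttgaatcctGCGCAGGCGcagaaggcgt
NRF1 core, Mrps9, chr1:42851219-42851247, minus strand: cctggagactGCGCAGGCGcagacctccc

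The third set shows the 120 bases before the RefSeq start of 2 members with strong promoters, Mrps9 and Mrpl35, and of 2 with no region in the conservative set, Mrpl14 and Mrps25. Capitals mark matches to any of the 12 motifs searched. The motif results below come from windows around the summit and not from these stretches, which were not compared with each other. The YY1 match of Mrpl35 lies outside its stretch, and the NRF1 match of Mrps9 runs past the end of its own. The RefSeq table of promoter sequences held 69 of the 78 members.
Mrps9, chr1:42851113-42851232, plus strand: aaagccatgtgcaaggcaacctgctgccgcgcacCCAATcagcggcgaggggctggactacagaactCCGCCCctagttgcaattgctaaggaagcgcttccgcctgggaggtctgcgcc
Mrpl35, chr6:71823785-71823904, minus strand: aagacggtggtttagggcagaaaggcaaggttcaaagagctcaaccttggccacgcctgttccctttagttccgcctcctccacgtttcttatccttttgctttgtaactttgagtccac
Mrpl14, chr17:45686229-45686348, plus strand: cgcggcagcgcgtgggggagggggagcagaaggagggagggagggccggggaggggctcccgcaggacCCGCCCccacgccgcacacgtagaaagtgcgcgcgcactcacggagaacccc
Mrps25, chr6:92184024-92184143, minus strand: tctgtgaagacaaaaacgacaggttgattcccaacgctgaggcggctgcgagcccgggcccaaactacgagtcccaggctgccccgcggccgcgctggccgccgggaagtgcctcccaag

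The monocyte label was compared with marker genes. Of 9 monocyte markers, 8 had an open promoter (Csf1r, Cx3cr1, Itgam, Ly6c2, Lyz2, Cd68, Cd14 and Spi1), and all 9, with Ccr2, had a region at the promoter or assigned to them. Among markers of other blood cells, open promoters were found at 1 of 3 for T cells (Cd3d), 1 of 3 for B cells (Pax5), 1 of 3 for erythroid cells (Klf1), 0 of 2 for NK cells, 0 of 3 for neutrophils and 0 of 2 for platelets. Distal regions were assigned to the NK markers 8 times, to the neutrophil markers 3 times, to the T cell markers 2 times and to the platelet markers 1 time. With promoter and distal regions counted together, 3 of 3 T cell, 2 of 2 NK and 3 of 3 neutrophil markers also had one. The same held for 1 of 3 B cell, 1 of 3 erythroid and 1 of 2 platelet markers, so this looser count does not set monocytes apart. The part of other cells in the results below was not tested.

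Nearly the whole gene set was open. A promoter was called open where a region lay within 1 kb of the start of a protein-coding transcript, and in the authors' conservative set, made from both replicates, 75 of 78 members (96.2%) were open, against 46.6% of all protein-coding genes. The large subunit had 48 of 49 promoters open and the small subunit 27 of 29. Members with a bacterial counterpart had 47 of 48 open, and those specific to mitochondria 28 of 30. The 75 genes used 74 regions, since Mrpl46 and Mrps11 share one.

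Each replicate gave nearly the same genes. In the looser pseudoreplicated sets replicate 1 had a region at all 78 members, where it had one at 50.5% of all genes, and replicate 2 at 77, where it had one at 51.3% of all genes. Both replicates together had 77 members, against 48.6% of all genes, and the gene missing from replicate 2 was Mrps25. In the stricter thresholded sets 67 members were open in replicate 1 (39.3% of all genes) and 73 in replicate 2 (40.7% of all genes). In both were 66 members, against 37.1% of all genes, which leaves Mrpl3 to replicate 1 alone and Mrpl4, Mrpl9, Mrpl21, Mrpl23, Mrpl52, Mrps2 and Mrps5 to replicate 2 alone. Mrps6, Mrpl14, Mrps25 and Mrps34 were in neither.

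The 3 members outside the conservative set had weak regions rather than none. Fold enrichment is the authors' own value for a peak over its background, and the highest fold of the peaks in a region is given. Mrpl14, whose product lies at the interface of the large subunit, had a fold of 3.55 in replicate 1 and 4.13 in replicate 2, and its nearest conservative region lay 16909 bp from a start. Mrps34, a small-subunit protein specific to mitochondria, had 4.03 in replicate 1 and 2.92 in replicate 2, both with summits just upstream of the start at -22 and -24 bp. Mrps25, another such protein, had 4.11 in replicate 1 at a summit 179 bp downstream of the start and no region in replicate 2. The lowest fold of an open member was 4.22 in replicate 1, at Mrpl23, and 4.62 in replicate 2, at Mrpl16, and these 3 genes were below it wherever they had a region. As the 3 were taken for not passing the conservative set, that order is partly given by the choice. By the CpG ratio around the start, with genes in 5 equal classes from low to high, Mrpl14 and Mrps25 were in class 4 and Mrps34 in class 5.

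**Figure D1:**
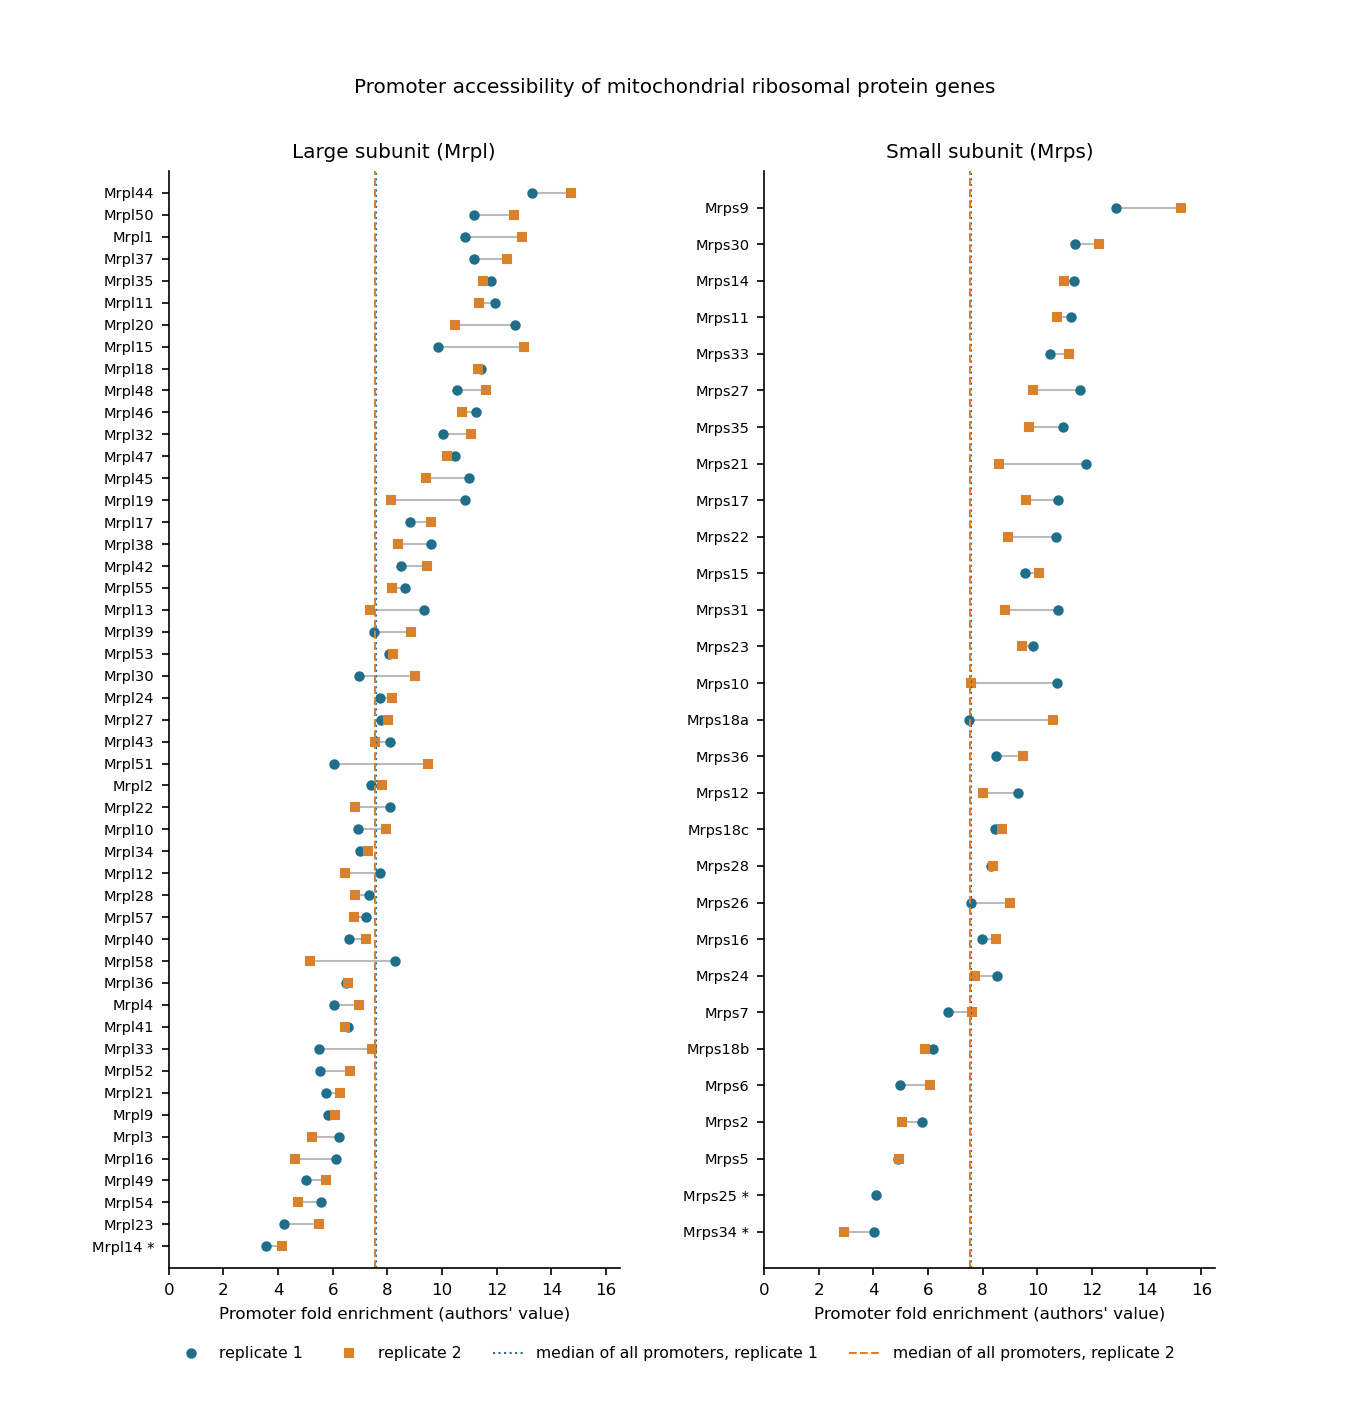
Promoter fold enrichment of each member (x axis, the authors' linear ratio, from the pseudoreplicated set of each replicate), large subunit on the left and small subunit on the right, with circles for replicate 1, squares for replicate 2 and a line joining them; dotted and dashed lines are the medians over all promoters found in both replicates, and asterisks mark members outside the conservative set. Mrpl44 and Mrps9 stand at the top of their panels and the asterisked genes at the bottom.

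Fold enrichment differed widely among the open promoters. Over the 77 members found in both replicates the mean fold ran from 3.47 to 14.1, while the SD between replicates had a median of 0.671 and reached 2.43. The median fold was 8.29 for members and 7.59 for all genes in replicate 1, and 8.37 for members and 7.54 for all genes in replicate 2. The median member therefore stood at percentile 60.2 of all open promoters in replicate 1 and at percentile 62.8 in replicate 2. Members were above the median of all promoters in both replicates in 42 cases, below it in both in 22, and on different sides in 13. In the top 25% of all open promoters were 28 of 78 members (35.9%) in replicate 1 and 24 of 77 (31.2%) in replicate 2, and in the bottom 25% were 7 in replicate 1 and 8 in replicate 2.

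Small-subunit promoters, grouped by symbol and so with Mrps18a, Mrps30 and Mrps36 among them, had the higher median. Their median fold was 9.40 in replicate 1 and 8.86 in replicate 2, against 7.75 and 8.03 for the large subunit, and 20 of 28 small-subunit genes were above the median of all promoters in both replicates, against 22 of 49 large-subunit genes. The ranges of the subunits overlapped almost completely, since each held genes from among the weakest and the strongest. In the pooled conservative set the medians were 10.2 for the small subunit and 8.54 for the large. No test of this difference was made. By origin, members specific to mitochondria had a pooled median of 9.91 and those with a bacterial counterpart 8.89.

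**Figure D2:**
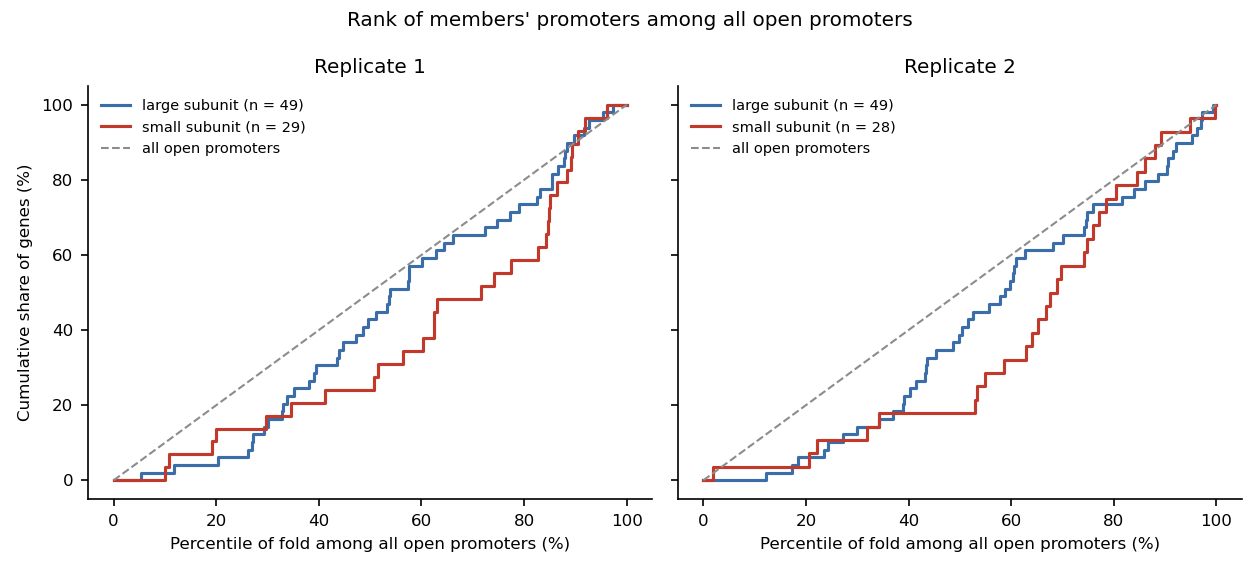
Cumulative share of large-subunit and small-subunit genes (y axis, %) against the percentile of their fold among all open promoters of the same replicate (x axis, %), with the dashed diagonal for all open promoters. Both curves reach 50% to the right of the diagonal, the large-subunit curve at percentile 53.8 in replicate 1 and 58.7 in replicate 2, and the small-subunit curve at 71.7 and 68.3.

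The strongest promoters belonged to proteins of both subunits. Mrpl44, which carries an RNase III-like fold and is needed for the large subunit, had 13.3 in replicate 1 and 14.7 in replicate 2 (SD 1.01, n = 2). Mrps9, a small-subunit protein with a bacterial counterpart, had 12.9 and 15.2 (14.1 ± 1.66, SD, n = 2). Among all open promoters Mrpl44 stood at percentile 97.3 in replicate 1 and 99.4 in replicate 2, and Mrps9 at 96.2 and 99.7. Mrps30 had 11.4 in replicate 1 and 12.3 in replicate 2. Despite its symbol, the product of Mrps30 sits in the large subunit of the mammalian mitochondrial ribosome. Mrpl50 had 11.2 and 12.6, Mrpl37 had 11.2 and 12.4, and Mrpl1 had 10.8 and 12.9. The first and second of these encode proteins specific to mitochondria, and Mrpl1 encodes a protein of the mobile stalk that guides the tRNA out. Mrpl35 had 11.8 in replicate 1 and 11.5 in replicate 2, Mrpl11 had 11.9 and 11.3, and Mrpl18 had 11.4 and 11.3. These agreed between replicates within an SD of 0.416, whereas Mrpl20 had 12.7 and 10.5 (11.6 ± 1.55).

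The weakest open promoters lay far below these. Mrpl23, a protein at the exit of the peptide tunnel, had 4.22 in replicate 1 and 5.51 in replicate 2 (4.86 ± 0.911). Mrps5, counterpart of a bacterial small-subunit protein, had 4.90 and 4.92 (4.91 ± 0.0161). Mrpl54 had 5.56 and 4.74, Mrpl49 had 5.01 and 5.74, and Mrpl16 had 6.12 and 4.62. None of these 5 reached the lowest of the 10 strongest in either replicate, which the choice by mean rank over both replicates largely sets.

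The replicates differed little over the set. Over 77 members the log2 ratio of replicate 1 over replicate 2 was centred at -0.02 (median) with a spread of 0.25 (SD), and over 10627 genes at 0.01 with a spread of 0.27. Absolute ratios above 0.5 were found in 3 of 77 members (3.90%) and in 5.54% of all genes. The log2 folds correlated between replicates with Pearson's r = 0.842 across members and 0.879 across all genes, where genes are not independent replicates. Mrpl58, a ribosome-bound peptidyl-tRNA hydrolase, had 8.27 in replicate 1 and 5.18 in replicate 2, a log2 ratio of 0.67. Mrps10 had 10.7 and 7.57 (0.50), Mrps18a, whose product also sits in the large subunit, had 7.51 and 10.6 (-0.49), and Mrps34 was described above (0.47). Mrpl51 had 6.04 and 9.47 (-0.65), and here the region itself differed. In replicate 1 the peak at Mrpl51 stood alone with its summit 23 bp from the start, while in replicate 2 it was merged with a peak 456 bp upstream, close to the start of the neighbour Ncapd2. The peak nearest the Mrpl51 start in replicate 2 had a fold of 7.56.

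Open regions sat close to the annotated starts. The median summit lay 20 bp upstream of the nearest start of the member, against 45 bp upstream over all genes, and 62 of 75 summits (82.7%) were within 100 bp of a start, against 66.2% of all open genes. For the small subunit this held for 26 of 27 genes (96.3%) and for the large subunit for 36 of 48 (75%). Summits lay upstream of the start in 51 members (68%) and in 77.5% of all open genes. The median width was 693 bp for members and 679 bp for all genes, and 74 of 75 member regions covered a start.

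The exceptions mostly involved a second gene or a second annotated start. At Mrpl51 the summit lay 444 bp upstream of its own start and 20 bp from that of Ncapd2, a condensin subunit. At Mrps18b, whose region also holds the start of Ppp1r10, the strongest peak lay 433 bp upstream, and a second peak 52 bp upstream had a fold of 5.27, against 6.08. At Mrpl39 the summit lay 443 bp downstream of the GENCODE start, and this region covered no GENCODE start of a protein-coding transcript, but the summit was 55 bp upstream of the RefSeq start. At Mrpl13 the stronger of 2 peaks lay 410 bp inside the gene, 70 bp from the start of Mtbp, and the weaker one at 152 bp had a fold of 5.87, against 9.02. Mrpl48 had its region, chr7:100582662-100583268, at an annotated start inside the gene and not at the outermost one, position 100608301, which is also the RefSeq start. One peak lay at the inner start with a fold of 9.69 and a stronger one 250 bp downstream of it with 12.8, and both were present in each replicate.

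**Figure D3:**
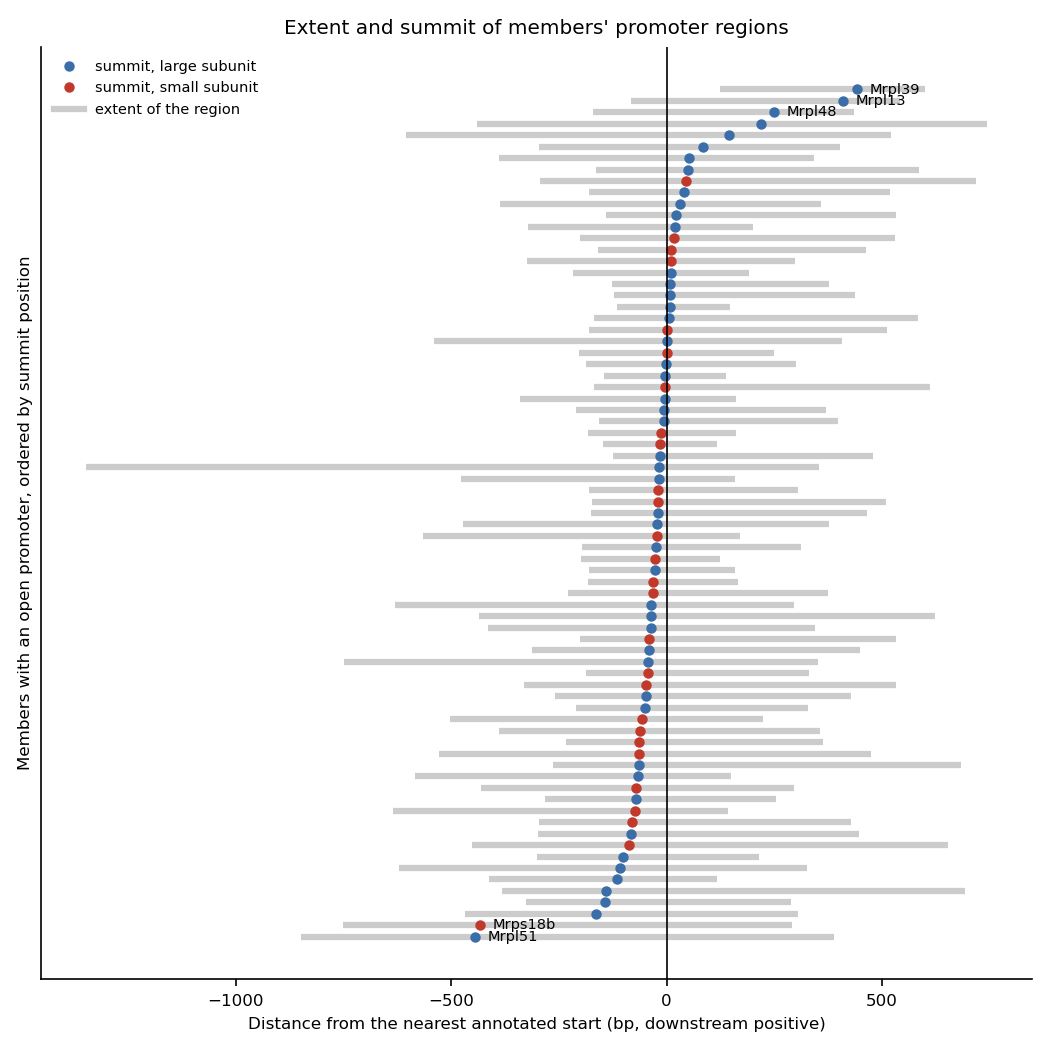
Extent (grey line) and summit (dot, coloured by subunit) of the promoter region of each of the 75 open members, ordered by summit position, against the distance from the nearest annotated start (x axis, bp, downstream positive). Most dots lie within 100 bp of the start, and the 5 labelled members lie 250 bp or more from it.

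Many members had a neighbour's start at or near their open region. The start of another protein-coding gene lay within 1 kb of the region in 32 of 75 members (42.7%), against 22.8% of all open genes. In 31 members (41.3%) the neighbour pointed away from the member, head to head, against 21% of all open genes. With no distance allowed between region and start, 30 members had such a neighbour, and the regions of Mrpl34 and Mrps30 do not reach the start of theirs. The large subunit had 23 of 48 members with a neighbour (47.9%) and the small subunit 9 of 27 (33.3%). The share was 38.2% for nuclear subunits of the respiratory chain and 18% for cytosolic ribosomal proteins. The exception in orientation was Mrps6, whose neighbours Slc5a3 and Gm49711 run in the same direction.

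Mrpl46 and Mrps11 form a pair within the gene set, one of each subunit. Their starts on chromosome 7 are 30 bp apart, and the shared region of 746 bp had a fold of 11.2 in replicate 1 and 10.7 in replicate 2. In 4 more members the neighbour belongs to the lists of mitochondrial genes used here, and these were named after the values were seen where they fall outside the rule. Mrpl43 lies head to head with Twnk, the helicase that replicates mitochondrial DNA, 116 bp away, with a fold of 8.09 in replicate 1 and 7.53 in replicate 2. Mrps12 lies 182 bp from Sars2, the mitochondrial seryl-tRNA synthetase, with 9.27 and 8.02. Mrpl47 and Mrpl36 lie next to subunits of respiratory complex I, Ndufb5 and Ndufs6, and in both the transcribed parts overlap, by 20 and 29 bp. Their folds were 10.5 in replicate 1 and 10.2 in replicate 2 for Mrpl47, and 6.47 and 6.55 for Mrpl36.

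The other strong pairs joined a member to a gene of another process. Mrpl44 overlapped Wdfy1 by 125 bp, Mrpl50 lay 83 bp from the zinc finger gene Zfp189, and Mrpl37 lay 120 bp from Cyb5rl, a cytochrome b5 reductase-like gene. Mrpl18 and Tcp1, a subunit of the cytosolic chaperonin, overlapped by 16 bp, and Mrpl32 and Psma2, a proteasome subunit, were 75 bp apart with a fold of 10.02 in replicate 1 and 11.1 in replicate 2. Mrps27 lay 81 bp from Ptcd2, which encodes a mitochondrial RNA-binding protein and was on none of the lists, with 11.6 and 9.84. Mrps18c lay 29 bp from Helq, a DNA helicase, with 8.47 and 8.72. Mrpl27 and Eme1, a nuclease subunit, overlapped by 197 bp, with 7.75 and 8.03. In Mrps30 the neighbour B430218F22Rik starts 622 bp inside the gene, and the summit was 63 bp upstream of the Mrps30 start.

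A neighbour's start went with wider regions but, among members, not with higher fold. Members with a neighbour had a median width of 748 bp (n = 32) and those without one 617 bp (n = 43). Over all genes these widths were 803 and 654 bp. Members with a neighbour had a median fold of 7.31 in replicate 1 and 7.87 in replicate 2, against 8.65 and 8.80 for members without one. Over all genes the order was the other way, with 8.36 and 8.24 for genes with a neighbour and 7.60 and 7.58 for genes without. This contrast was not tested.

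No member had a CpG-poor promoter. The CpG ratio, observed over expected CpG within 500 bp of 1 start per gene, had a median of 0.725 in members and 0.557 in all genes. Classes 1 and 2 held no member, and 8.85% and 20.5% of all genes in them were open. In class 3, 19 of 19 members were open, against 50.7% of all genes in it. In class 4, 34 of 36 members were open, against 73.9%, and in class 5, 22 of 23, against 78.9%. The median pooled fold of members was 10.2, 9.15 and 8.93 in classes 3, 4 and 5, and that of all genes 8.34, 8.80 and 8.30.

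The open sequence was searched for 12 motifs on both strands, within 150 bp of each summit. A match is a description of the letters, and the absence of one says only that these letters are not in the window. The ETS core CCGGAAG was found in 33 of 75 members (44%) and in 23.4% of all open genes. The NRF1 core GCGCANGCG was found in 18 members (24%) and in 15.6% of all open genes, and some of its copies read on both strands. The YY1 core AANATGGCG was found in 17 members (22.7%) and in 7.79% of all open genes. At least 1 of these was present in 53 members (70.7%) and in 39.9% of all open genes, and no member held all of them. Members with 2 kinds held ETS and NRF1 in 7 cases, ETS and YY1 in 6, and NRF1 and YY1 in 2.

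The ETS share of members was above that of all open genes in each CpG class and without a neighbour, and close to it with a neighbour. In members with a second start near the region ETS was found in 34.4%, against 31.8% of such genes, NRF1 in 25%, against 19.6%, and YY1 in 25%, against 10%. Among members with no second start near the region the ETS core was in 22 of 43 (51.2%), against 20.9% of such genes, NRF1 in 23.3%, against 14.4%, and YY1 in 20.9%, against 7.13%. ETS was found in 42.1%, 47.1% and 40.9% of members in CpG classes 3, 4 and 5, against 22.2%, 27.1% and 25.5% of all open genes in them. NRF1 differed little from all genes in class 3, with 10.5% of members and 10.9% of all genes. YY1 was found in 8 of 19 members of class 3 (42.1%), against 7.67% of all genes, in 3 of 34 of class 4 (8.82%), against 8.42%, and in 6 of 22 of class 5 (27.3%), against 9.17%.

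Within 150 bp of the summit none of the other motifs was more frequent in members than in all open genes. The SP/KLF box GGGCGG was found in 57.3% of members and 68% of all open genes, and the NFY box CCAAT in 33.3% and 42.1%. For SP/KLF the order turned in a window from 250 bp before to 50 bp after 1 start per gene, open or not, with 48.7% of members and 43.9% of all genes, and likewise for the CRE with 2.56% and 2.43%. The CRE TGACGTCA was found in 2.67% of members and 4.16% of all genes, the E-box CACGTG in 5.33% and 11.3%, the C/EBP letters TTGCNNAA in 6.67% and 7.77%, and the TATA letters TATAAA in 4% and 4.09%. Of PU.1, an ETS factor central to monocytes, the letters GAGGAAGT were found in 0 of 75 members and 4.03% of all open genes. They share the letters GGAAG with the ETS core, but the base before differs, so no site counts for both. The ZNF143 letters ACTACAATT were in 0 of 75 members and 0.993% of all genes, and the ERR letters TCAAGGTCA in 0 of 75 and 0.226%. Both are so rare in all genes that 0 of 75 says little about members. The C/EBP and TATA shares were near those of all open genes, and the CRE share rests on 2 members.

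**Figure D4:**
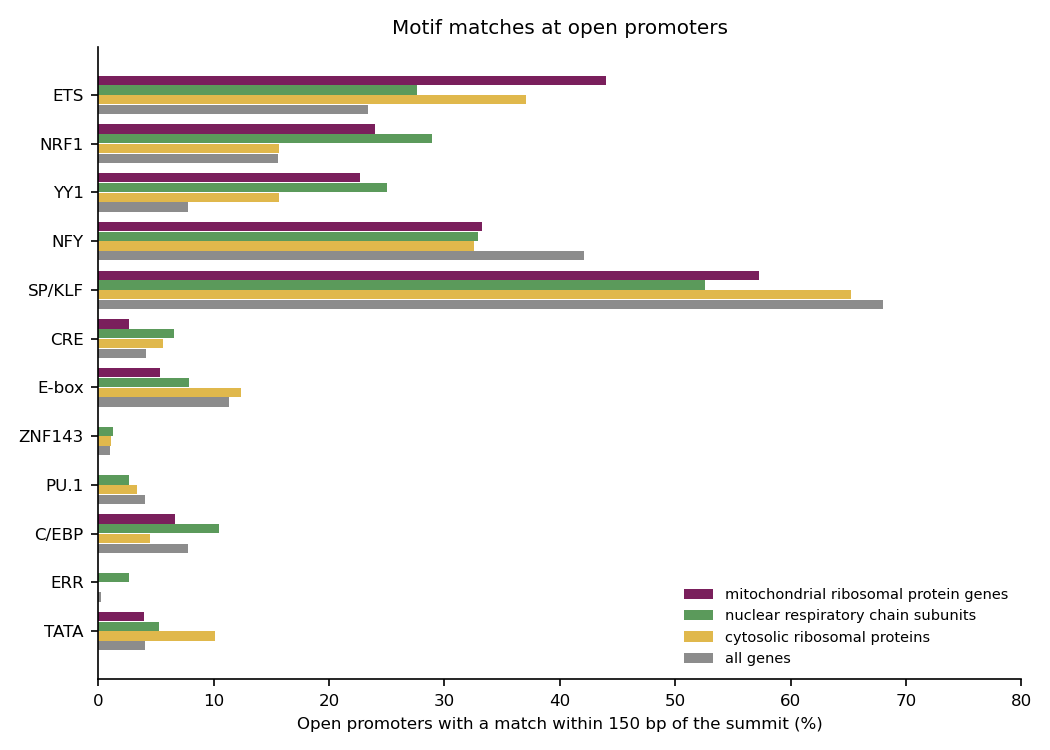
Share of open promoters with at least 1 match to each motif within 150 bp of the summit (x axis, %), for mitochondrial ribosomal protein genes, nuclear respiratory chain subunits, cytosolic ribosomal proteins and all genes, from top to bottom in each group of bars. The ETS bar of members reaches 44% and that of all genes 23.4%, and the members' YY1 bar 22.7%, against 7.79%.

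The comparison lists differed in which core was common. ETS was found in 27.6% of respiratory chain genes and 37.1% of cytosolic ribosomal protein genes, NRF1 in 28.9% and 15.7%, and YY1 in 25% and 15.7%. Among these 3 lists members had the highest ETS share, and in NRF1 and YY1 they were closer to the respiratory chain. Of the shorter mitochondrial lists, genes for transcription and replication of mitochondrial DNA had a higher one, with ETS in 8 of 11 (72.7%). These differences were not tested.

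Most YY1 matches lay just downstream of the start. The 17 matches ran from 92 bp upstream to 159 bp downstream, with a median position 26 bp downstream of the start, 10 of them from 0 to 50 bp downstream, and 14 (82.4%) were on the gene's strand. Over all genes the median was 20 bp downstream, with 39.2% from 0 to 50 bp downstream and 66% on the gene's strand. ETS matches had a median at 1 bp downstream in members, with the middle 50% from -36 to 17.5 bp, and 19 bp upstream in all genes. NRF1 matches had a median 6 bp upstream in members and 43 bp upstream in all genes, and NFY matches 59 and 73 bp upstream. Matches were sought only within 150 bp of the summit, and members' summits lay nearer the start than those of all genes. The part of summit position in these differences was not tested.

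**Figure D5:**
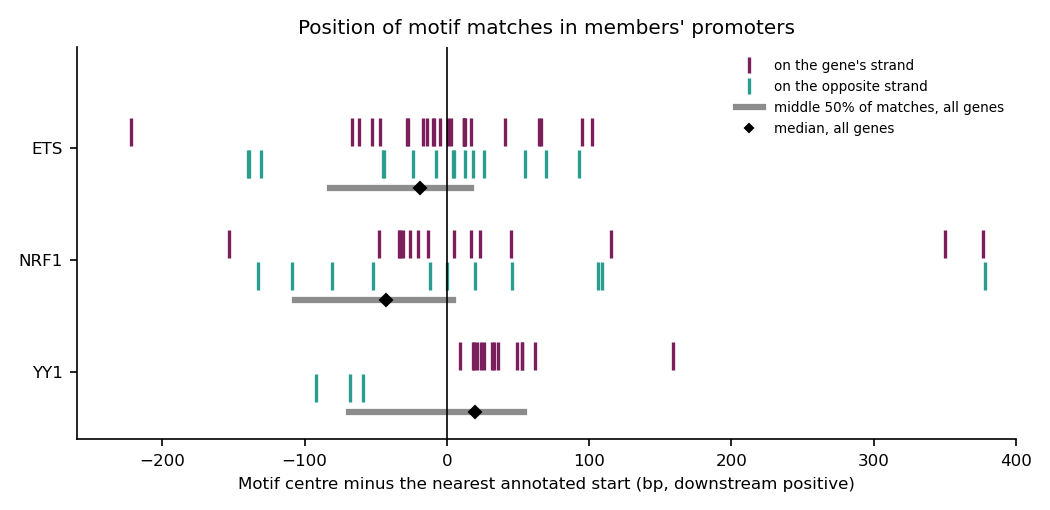
Position of every ETS, NRF1 and YY1 match in members' promoters relative to the nearest annotated start (x axis, bp, downstream positive), with purple marks for matches on the gene's strand and green marks for the opposite strand; the grey bar and diamond give the middle 50% and the median of the matches of all genes. The purple YY1 marks lie downstream of the start in all 14 cases.

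Most of the YY1 matches contain the start codon. The letters AANATGGCG include ATG, and in 12 of the 14 members with a match on the gene's strand this ATG is an annotated start codon of the gene. The sequences printed first show it, from Mrps27 at 18 bp to Mrpl45 at 159 bp from the start. Over all genes 279 of 547 matches on the gene's strand (51%) were at a start codon. The 3 matches on the opposite strand fall on start codons of neighbours, Ndufs6 at Mrpl36, Gga3 at Mrps7 and Mrpl46 at Mrps11, of which the Mrps11 match is the same site as that of Mrpl46. The share of such neighbour matches over all genes was not computed. Counted by gene, 12 of 75 members (16%) had the letters at their own start codon, against 2.74% of all open genes. The respiratory chain genes had 17.1% and the cytosolic ribosomal protein genes 5.62%. Members' start codons lie close to the open summit, within 150 bp in 47 of 75 (62.7%), against 24.7% of all open genes. Among genes with such a near start codon the letters were at it in 25.5% of members and 11.1% of all genes. Outside start codons of their own, 5 of 75 members (6.67%) held the letters, against 5.12% of all open genes. The reading frame and binding by YY1 were not measured here, and the part of coding sequence in this match was not tested.

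Members with a YY1 match had the higher median fold. Their median fold was 10.8 in replicate 1 and 9.84 in replicate 2 (n = 17), against 8.07 and 8.20 without a match (n = 58). Over all genes it was 8.82 and 8.93 with a match and 7.72 and 7.67 without. Of the 17 members with a match, 8 were in CpG class 3, where members had their highest median pooled fold (10.2). Mrpl46 and Mrps11 both count among the 17 through the same site and region. Match and CpG class were not told apart, and the contrast was not tested. Members with the ETS core had a median fold of 8.27 in replicate 1 and 8.37 in replicate 2, and those without it 8.59 and 8.43. By the mean of both replicates the order was the other way, with a median of 8.60 with the core and 8.34 without. Over all genes the values were 8.504 and 8.46 with the core and 7.57 and 7.51 without. Of the 10 strongest members, Mrps30, Mrpl37, Mrpl35 and Mrpl1 held YY1 matches, Mrpl44 and Mrps9 NRF1 matches, and Mrpl18 and Mrpl20 ETS matches. Mrpl50 and Mrpl11 held no match to ETS, NRF1 or YY1. Over all 75 open members the shares were 22.7% for YY1, 24% for NRF1, 44% for ETS and 70.7% for any of them.

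Few distal regions belonged to these genes. A distal region lay more than 1 kb from every protein-coding start and was assigned to the nearest start within 100 kb. In the conservative set 21 of 78 members (26.9%) had one, against 33.6% of all genes, and the 31 regions came to 0.397 per member, against 0.745 per gene. Members have less sequence around them: the stretch of genome nearest to their starts had a median of 22.9 kb, against 43.7 kb for all genes. Per 100 kb of such sequence members had 1.06 regions and all genes 1.06. The count depends on the peak set. In the looser sets 29 members had a distal region in replicate 1 and 27 in replicate 2, against 41.7% and 41.5% of all genes, with 22 members in both. In the thresholded sets of single replicates 12 members had one in replicate 1, against 22.1% of all genes, and 10 in replicate 2, against 22.3%.

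Distal regions were weaker than promoters, with few exceptions. Their median pooled fold was 6.72 for members and 6.03 for all genes, and 4 of 31 exceeded the fold of the member's promoter. Of the 31 regions, 15 were intergenic, 11 in introns and 5 in exons, 16 upstream and 15 downstream of the start, and 25 were called in both replicates' looser sets. The shares over all distal regions are not given here, for these counts or for the 4 of 31. The counts therefore describe the members' regions and are not shown to be particular to them. The strongest lay in an intron of Mrps27, chr13:99353073-99353547, 8542 bp downstream of the start, with a fold of 16.0 in replicate 1 and 13.6 in replicate 2. It ranked 39 among 16278 distal regions. The Mrps27 promoter, with 11.6 and 9.84, was weaker in both replicates.

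Mrpl33, Mrpl1, Mrpl45 and Mrps23 had 3 distal regions each, and Mrpl22 and Mrps10 2 each. Mrpl33, counterpart of a small bacterial large-subunit protein, had its strongest at chr5:31602237-31602972, with 11.4 in replicate 1 and 9.44 in replicate 2, while its promoter had 5.49 and 7.45. This region lies inside the annotated gene, 11.3 kb upstream of the nearest protein-coding start. Mrpl45, whose product tethers the ribosome to the inner membrane, had 2 regions in its own introns with pooled folds of 8.26 and 8.24. Mrps23 had 2 of its 3 in exons of the neighbour Cuedc1, the stronger with a pooled fold of 8.18. The 3 regions of Mrpl1 lay within the gene, at pooled folds from 5.80 to 6.99. Mrps10 had 2 upstream regions of 4.45 and 4.95, both absent from the set of replicate 1, and the region of 4.45 was absent from that of replicate 2 too. The strongest intergenic region was assigned to Mrps18a, 36.9 kb upstream, at 9.78. Assignment to the nearest start says nothing of which gene a region acts on.

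Most other genes of mitochondrial translation, and those for mitochondrial DNA, were open in the conservative set as well. The share over all genes in that set was 46.6%. All 5 mitoribosomal proteins with other symbols (Dap3, Ptcd3, Gadd45gip1, Chchd1 and Aurkaip1) had open promoters, as had 24 of 24 genes for assembly of the ribosome and modification of its RNA, 15 of 15 translation factors and 11 of 11 genes for transcription and replication of mitochondrial DNA. Among the 24, Trmt2b had no region in the looser set of replicate 2. Twnk, and Sars2 among the synthetases below, share the regions of Mrpl43 and Mrps12. Of 17 mitochondrial aminoacyl-tRNA synthetases 16 were open, all but Iars2, and they had a pooled median fold of 11.3 and stood at a median percentile of 82.2 in replicate 1 and 84.4 in replicate 2. Of 12 regulators of nuclear mitochondrial genes 10 were open, and those outside the set were Ppargc1a and Myc. In the looser sets 8 of the 12 had a promoter region in both replicates, against 48.6% of all genes. Ppargc1b had one in neither replicate, and Nrf1 in replicate 2 only. By symbol, 89 of 102 cytosolic ribosomal protein genes (87.3%) and 76 of 85 nuclear respiratory chain genes (89.4%) were open. Without S6 kinase genes and retrocopies, left out after the values were seen, the cytosolic list had 82 of 85 open (96.5%).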

How the data were processed

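Peak lists from 2 ATAC-seq replicates were analysed, all on mm10 according to the README files deposited with them. The sources used here give no aligner, no peak caller with its version, and no statement on transposase offsets. Fold enrichment of a peak, a linear ratio, its −log10 p and the summit offset (a score in bp) were deposited by the authors and were not rescaled. Overlapping peaks on chromosomes 1 to 19, X and Y were joined, and a region took the highest fold among its peaks and the position of the peak with the smallest p. The strength and number of peaks can move with depth, which is unknown.

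Starts were those of protein-coding transcripts in GENCODE M21, on sequence of GRCm38.p6 read with pysam 0.24.0, and promoter sequences of 69 members came from RefSeq (GRCm38.p6). The steps were tested on simulated data, with promoter peaks only at genes that had no other gene's start nearby and motifs planted in random letters. Promoter regions shared by neighbouring genes were therefore not covered by it. Members, lists and motifs were chosen with earlier results of these data known. The shorter cytosolic list and the motif shares of promoters without a neighbour were added after seeing the data. Named were the 10 strongest and 5 weakest open promoters by mean rank, members with none, the 5 with most distal regions (6 with ties), the 5 largest differences between replicates, the 5 farthest summits and up to 15 shared regions by fold. No test was made, since 1 group of 2 replicates gives none.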

Additional observations from a re-analysis of the deposited data

How the results depend on the processing

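Of 125 recomputed values in all, 10 were the count of open member promoters, which ran from 67 with a single replicate to 78 in the replicated set. Leaving out a replicate, with the thresholded set of the other in its place, gave 67 to 73 open promoters, 28 to 31 with a neighbouring start and a median summit from -20 to -15 bp. The median fold was then 8.48 to 8.65 and the median width 568 to 581 bp, and the distal results fell to 10 to 12 members and 0.179 to 0.205 regions per member. In the replicated set the median fold was 8.99, with 36 members (46.2%) having a distal region, against 51.5% of all genes, and 0.974 regions per member, against 1.64. The pseudoreplicated set had 34 such members (43.6%), against 49% of all genes. The upper part of the conservative set by −log10 p had 13. The share over all genes was not computed for it, so this count is not shown to be particular to members. These sets hold more or fewer peaks than the conservative one by construction. With a distal limit of 50 kb members had 0.372 regions each, and with no limit 0.423, again with no value computed over all genes. From 250 bp before to 50 bp after 1 start per gene, open or not, the YY1 share was 14.1% in members, against 3.07% in all genes, ETS 34.6%, against 11%, and NRF1 19.2%, against 8.42%; the cause of the lower shares was not tested. Within 100 bp of the summit the E-box and TATA shares of members were each 1.33%, and without a neighbouring start the E-box share was 0; each rests on at most 4 promoters. No paired analysis was possible because the study has 1 group. Depth is unknown, so weak regions such as those of Mrpl14, Mrps25 and Mrps34 cannot be given a counting error.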
